A study of Schizosaccharomyces pombe with 3 samples.

Results

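The cytosolic ribosomal protein genes of the fission yeast Schizosaccharomyces pombe were followed in 3 cultures that differed in the gene eca39. The group was chosen with earlier results of these data known. Its members are every gene whose symbol in the array's annotation starts with rpl (large subunit) or rps (small subunit) and a number. This gave 112 genes, 67 of the large and 45 of the small subunit, among 4981 measured features, of which 2899 were named genes. The gene table of assembly ASM294v3 lists 131 such symbols. Of these, 7 were read only by probe sets shared with a paralog, which are described separately, and 12 were not analysed here.

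Ribosomal proteins bind ribosomal RNA to form the large subunit, which joins amino acids, and the small subunit, which reads the messenger RNA. Growing yeast cells make ribosomes at a high rate, so the messengers of ribosomal proteins are among the most abundant in the cell. Their transcription is known to follow nutrient supply through the kinase complex TORC1 and usually goes down when amino acids or nitrogen run short. Most of these proteins are encoded in fission yeast by a pair of near-identical genes, the paralogs, which are told apart by the last digits of the symbol.

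The wild-type culture was the prototrophic strain SpHT219 (h-). The deletion culture was SpHT257-1 (h- eca39∆::kanMX4), in which a kanMX4 cassette stands in place of eca39. This gene encodes an aminotransferase that acts on isoleucine, leucine and valine, the amino acids with branched side chains. The adapted culture was this deletion strain after it had grown near wild-type cells on an EMM2-N plate that held 15 mM glutamate and each of these amino acids at 2 mM, whereas the other cultures were started from YE plates, so adaptation and plate cannot be told apart. All 3 cultures were then grown in liquid YE, a rich medium, with the same amino acids at 2 mM, starting at an optical density near 0.1 and ending near 1, and 1 Affymetrix array was made from the total RNA of each. With no repeated culture, no difference below has a replicate check or a p-value.

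Values are readings on the log2 scale, where a difference of 1 is a 2-fold difference. Over 4999 probe sets the readings ran from 2.99 to 15.17, and the median array reading was 10.64 for wild type and 10.69 for each mutant culture. The deleted gene read 14.60 on the wild-type array, 6.12 on the deletion array and 6.37 on the adapted array. This matches the label of the wild-type array but cannot tell the mutant arrays from each other. A member was counted as higher or lower by 2-fold when its readings differed by at least 1 and the brighter of them reached 9.82, the 30th percentile of the table. Since no member differed by that much, those that differed by at least 1.2-fold (0.26 on the log2 scale) were counted as well. Features that reached 9.82 on either array of a comparison are called bright, and each fold count stands beside the share of bright features that pass the same rule.

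Ribosomal protein genes filled the top of the scale on every array. Their readings ran from 12.51 (rpl1603) to 15.09 (rpl1001) in wild type with a median of 14.73, from 11.89 to 15.10 in the deletion culture with a median of 14.69, and from 12.19 to 15.09 in the adapted culture with a median of 14.71. All 112 were above the brightness limit on each array. In wild type 107 of them lay among the 250 brightest features, the top 5%, and made up 42.8% of these. In the deletion and the adapted culture 105 did, or 42.0%. Of the 48 features that read above 14.81 in wild type, the 99th percentile of the table, 30 were members. The medians of large and small subunit genes were 14.74 and 14.68 in wild type, 14.70 and 14.65 in the deletion culture, and 14.74 and 14.66 in the adapted culture.

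Many of these readings did not differ between arrays at all. The same value, to within 1e-09, stood on all 3 arrays for 22 members (19.6%), among them rpl101 (14.98), rpl402 (14.90), rps13 (15.06) and rps1901 (14.92), against 5.84% of all features. The 22 comprise 13 large and 9 small subunit genes, and the dimmest of them, rps401, read 14.48. The 5.84% covers features of all readings, and the share on all 3 arrays at like readings was not computed. From 14.73 up in wild type, 27 of 56 members were below wild type in the deletion culture, 9 above and the rest equal. Of 29 other features there, 11 were below, 7 above and the rest equal. Equal values also stood at lower readings, as for fhl1 (9.39) and tor2 (10.87). Whether an equal reading stands for an equal amount of messenger was not tested.

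Between the deletion culture and wild type no ribosomal protein gene differed by 2-fold, while 2.3% of the 3569 bright features were higher and 0.0841% lower by that much. By at least 1.2-fold, 3 members were lower and none was higher, against 9.11% of bright features that were lower and 13.5% that were higher. The 3 were rpl1603, rpl102 and rpl3402, all of the large subunit. At 1.5-fold 1 member was lower and none higher, against 0.616% and 5.52% of bright features, and at 1.1-fold 6 were lower and 1 higher, against 23.7% and 21.1%. Among the 499 features in the top 10% by mean reading, 5.01% were lower by 1.2-fold, and 2 of the 110 members in that set were. The median difference of the 112 genes was -0.010, with an interquartile range from -0.053 to 0, and that of all features was 0, with a range from -0.099 to 0.16. Within 0.05 of 0 lay 80 members, against 29% of all features. At wild-type readings from 14.73 up, 50 of 56 members and 26 of 29 other features did. From 14 to 14.73, 30 of 50 members and 41 of 106 other features did, and under 14, 0 of 6 and 1297 of 4734.

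The gene rpl1603 (SPBC2G2.05), 1 of 3 genes for the large subunit protein L16, differed most. It read 12.51 on the wild-type array, 11.89 on the deletion array and 12.19 on the adapted array, lowest in the deletion culture and between the others in the adapted one. The deletion culture was thus at 65.0% of wild type, a difference of -0.62 (1.54-fold), and the adapted culture at 80.2%, a difference of -0.32 (1.25-fold). No other member was lower by 1.5-fold in the deletion culture.

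The gene rpl102 (SPBC30D10.18C) encodes a protein of the L1 stalk, the mobile arm past which spent transfer RNA leaves the ribosome. It read 13.98 on the wild-type array, 13.53 on the deletion array and 13.60 on the adapted array. Both mutant cultures were below wild type, at 73.0% (-0.45) and 76.5% (-0.39). The third, rpl3402 (SPCC1322.15), a gene of the large subunit protein L34, read 13.81, 13.54 and 13.62 in the same order, which put the deletion culture at 82.6% (-0.28) and the adapted culture at 87.4% (-0.19) of wild type. With the trend of the differences on the reading removed, rpl3402 was at -0.23 and no longer past 1.2-fold in the deletion culture, while rpl1603 (-0.55) and rpl102 (-0.41) were.

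Smaller shortfalls in the deletion culture were read for rps1401, rpl1502, rpl401, rpl3002 and rps1902. The gene rps1401 (SPAC3H5.05C), of the small subunit protein S14, read 13.80 on the wild-type array, 13.61 on the deletion array and 13.77 on the adapted array, so that only the deletion culture stood apart, by -0.18. The gene rpl401 (SPBC1711.06), whose protein L4 lines the tunnel through which the growing chain leaves, read 14.45, 14.31 and 14.34, differences of -0.15 and -0.12. For rpl1502 they were -0.15 and -0.13. For rpl3002, a gene of the L30 protein that in budding yeast regulates the splicing of its own transcript, the readings were 14.02, 13.89 and 13.87, differences of -0.13 and -0.15. The gene rps1902, of a small subunit protein whose human counterpart is mutated in Diamond-Blackfan anaemia, differed by -0.12 and -0.091. None of these 5 reached 1.2-fold in either culture.

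The only member above wild type by more than 0.1 in the deletion culture was rpl4101 (SPAC3G6.13C), a gene of L41, the smallest ribosomal protein, which lies where the subunits meet. It read 13.10 on the wild-type array, 13.32 on the deletion array and 13.20 on the adapted array, differences of 0.22 and 0.10. Its paralog rpl4102 followed with 14.75, 14.82 and 14.81, differences of 0.066 and 0.058. Both stayed above wild type under the 3 other scalings tried, where the adapted value of rpl4101 came to 0.026 under repeated quantile normalization and its deletion value to 0.28, past 1.2-fold, with the trend removed. The next highest members in the deletion culture, rpl39, rpl1901, rpl701, rpl1001, rpl26 and rps21, lay between 0.0064 and 0.014. In all 70 members were below wild type, 11 above it and 31 equal to it, against 42.8%, 45.9% and 11.3% of all features. In the top 10% by mean reading 57.7% of features were below and 30.1% above wild type. These signs depended on the scaling, since 51 were below and 61 above 0 once a smooth trend of the differences on the reading had been removed, and 60 and 36 under repeated quantile normalization.

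**Figure D1:**
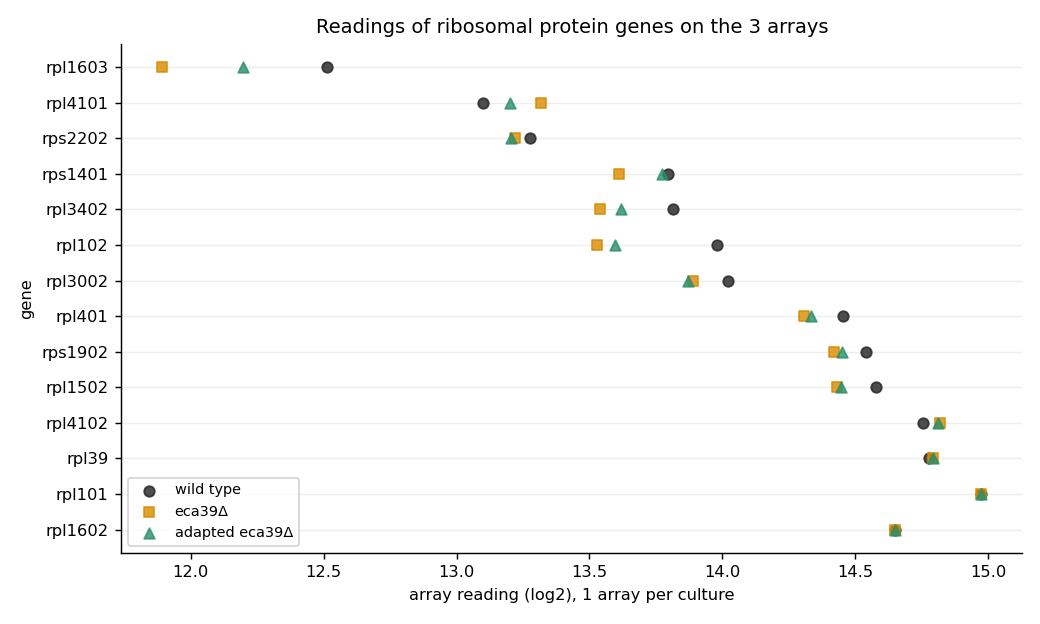
Log2 readings of 14 ribosomal protein genes (rows) on the arrays of wild type (circles), the deletion culture (squares) and the adapted culture (triangles), 1 array each. The widest spread is that of rpl1603, from 11.89 to 12.51, while rpl101 and rpl1602 have the same reading on all arrays.

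The size of a difference went with the reading. The 6 members that read under 14 in wild type were rpl102, rpl1603, rpl3402, rpl4101, rps1401 and rps2202, and their median absolute difference between the deletion culture and wild type was 0.25. It was 0.031 for the 50 members from 14 to 14.73, the members' median reading, and 0.0057 for the 56 from there on. Other features followed the same order, with 0.13 for 4734 features under 14, 0.067 for 106 from 14 to 14.73 and 0.0073 for 29 from there on. In the adapted culture the members' values were 0.15, 0.013 and 0.0036. The other features under 14 reach down to a wild-type reading of 2.99, while the 6 members there read from 12.51 up. The limit at 14 was set after the readings were seen. Whether bright probes near saturation held differences back was not tested, and a small difference of a bright member does not show that its messenger kept its level.

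**Figure D2:**
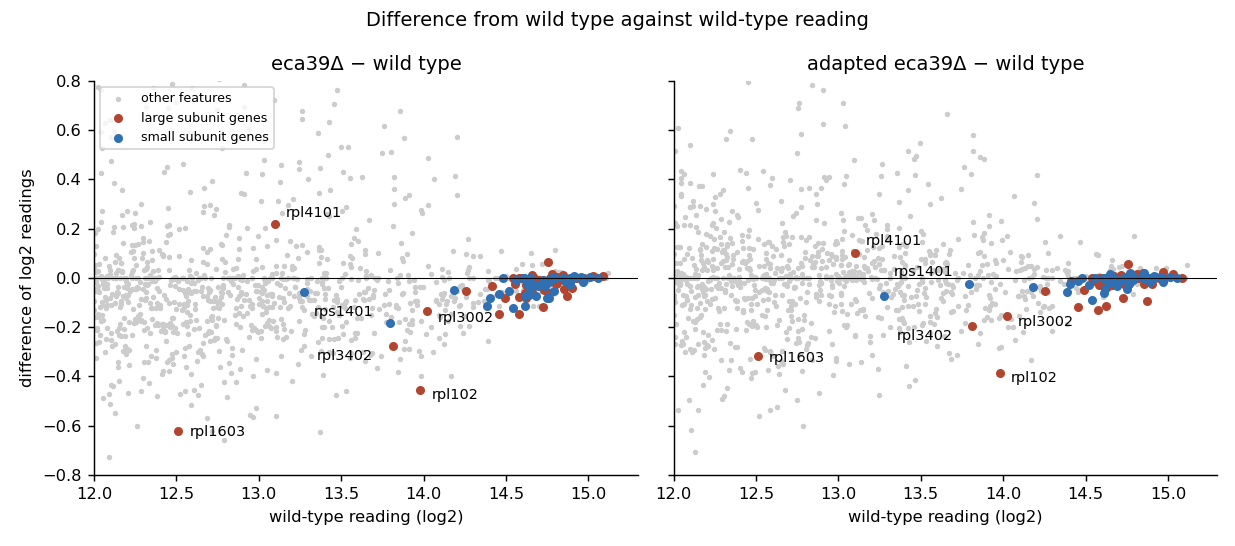
Difference of log2 readings from wild type (vertical axis) against the wild-type reading (horizontal axis) for the deletion culture (left) and the adapted culture (right). Red and blue points are large and small subunit genes and grey points other features that read at least 12, of which those beyond 0.8 in either direction are not shown. The members spread out below a reading of 14 and most lie close to 0 above it.

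Between the adapted culture and wild type, again no member differed by 2-fold, against 1.48% of 3588 bright features that were higher and 0.223% that were lower. By at least 1.2-fold, rpl102 and rpl1603 were lower and none was higher, against 7.08% of bright features lower and 13.3% higher. At 1.5-fold none was lower or higher, against 0.418% and 3.62% of bright features, and at 1.1-fold 4 were lower and none higher, against 16.2% and 24.9%. In the top 10% by mean reading 2.4% of features were lower by 1.2-fold, and 1 of 110 members was. Within 0.05 of 0 lay 96 members, against 30.1% of all features. At wild-type readings from 14.73 up, 54 of 56 members and 26 of 29 other features did. From 14 to 14.73, 41 of 50 members and 57 of 106 other features did, and under 14, 1 of 6 and 1319 of 4734. The median difference was 0, with an interquartile range from -0.023 to 0.00013, and that of all features was 0.027. Below wild type were 51 members, above it 28 and equal to it 33, against 34.8%, 56.1% and 9.05% of all features and, in the top 10%, 43.1% below and 45.3% above. With the trend removed 86 were below and 26 above, under repeated quantile normalization 65 and 32, and with the median of all features subtracted 110 and 2. This comparison shares the wild-type array with the previous one, so the values of a gene in both are not independent.

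After rpl102 (-0.39), rpl1603 (-0.32) and rpl3402 (-0.19), the lowest differences in the adapted culture were those of rpl3002, rpl1502 and rpl401, followed by rpl803 (-0.11) and rpl1002 (-0.092). All 8 lowest belong to the large subunit, as do 67 of the 112 members. Among small subunit genes the lowest was rps1902 at -0.091. After rpl4101 and rpl4102, the highest were rpl2802 (0.023), rps2 (0.020), rps27 (0.019), rpl31 (0.018), rps1002 (0.017) and rpl14 (0.016), and all of these readings were above 14.6 on every array.

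Between the adapted and the unadapted deletion culture, 1 member passed 1.2-fold. This was rpl1603, higher in the adapted culture by 0.30 (1.23-fold), against 6.87% of 3609 bright features that were higher and 5.74% that were lower by that much. None differed by 2-fold, against 0.194% of bright features higher and 0.471% lower. At 1.5-fold none was higher or lower, against 0.665% and 1.52% of bright features, and at 1.1-fold 2 were higher and none lower, against 21.8% and 13.7%. In the top 10% by mean reading 2.2% of features were lower by 1.2-fold and none of 110 members was. Next came rps1401 (0.16), rpl3402 (0.082), rpl102 (0.068), rps3002 (0.061), rps1002 (0.058), rps1801 (0.058) and rps1001 (0.057). Lowest was rpl4101 (-0.12), followed by rpl803 (-0.034), rpl3002 (-0.019), rpl1002 (-0.017), rps2202 (-0.016), rpl1001 (-0.0086), rpl4102 (-0.0077) and rpl1901 (-0.0063).

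The readings were higher in the adapted culture for 70 members, lower for 8 and equal for 34, against 50.8%, 36.3% and 12.8% of all features. The median difference was 0.0070, and that of all features was 0.0029. Among the top 10% of features 58.9% were higher and 27.5% lower in the adapted culture, and of the 110 members there 69 were higher and 7 lower. Within 0.05 of 0 lay 98 members, against 35% of all features. At wild-type readings from 14.73 up, 54 of 56 members and 28 of 29 other features did. From 14 to 14.73, 43 of 50 members and 49 of 106 other features did, and under 14, 1 of 6 and 1570 of 4734. With the trend removed 50 members were higher and 62 lower, and under repeated quantile normalization 49 and 52, and with the median of all features subtracted 63 and 49. The preponderance of higher readings was thus smaller in the last of these and absent in the others. The gene rpl1603 did not reach 1.2-fold in the first 2, with 0.258 under repeated quantile normalization and 0.262 with the trend removed, against a threshold of 0.263.

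Large and small subunit genes differed little as groups. In the deletion culture, relative to wild type, the median difference was -0.0050 over 67 large and -0.023 over 45 small subunit genes, a gap of 0.018 in log2 units. In the adapted culture both medians were 0, and between the mutant cultures they were 0.0047 and 0.011. The standard deviation across genes was 0.11 for large and 0.042 for small subunit genes in the deletion culture. The interquartile range had the other order, 0.046 against 0.056, so the wider spread of the large subunit lay in its outlying genes rpl1603, rpl102, rpl3402 and rpl4101. In the adapted culture the standard deviations were 0.074 and 0.024 and the interquartile ranges 0.027 and 0.022. All members past 1.2-fold in any comparison belong to the large subunit, as do 67 of the 112 members. They are only 3 genes, rpl1603, rpl102 and rpl3402, which all read under 14 in wild type. Of the small subunit the lowest were rps1401 (-0.18) in the deletion culture and rps1902 (-0.091) in the adapted culture, and its highest were rps21 (0.0064) and rps2 (0.020). Genes are not replicates, and these gaps have no test.

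**Figure D3:**
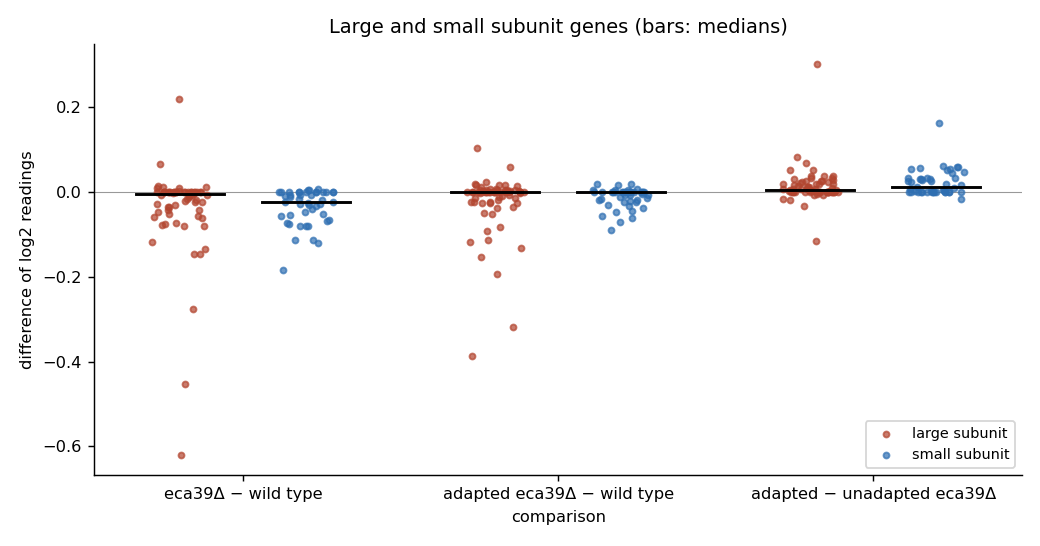
Differences of log2 readings (vertical axis) for each large (red) and small (blue) subunit gene in the 3 comparisons, with bars at the medians and a random sideways shift of the points. The medians lie between -0.023 and 0.011, and the outlying points are large subunit genes, rpl1603 at -0.62 and rpl4101 at 0.22 in the first comparison.

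Paralogs were compared by their differences from wild type and not by their readings, since probe sets differ in how well they bind. A family was formed by members that share all but the last 2 digits of the symbol, which gave 40 families, 37 pairs and 3 triples, with 83 genes. Its gap is the highest minus the lowest difference within it. In the deletion culture, relative to wild type, the median gap was 0.052 and 18 families had a gap under 0.05. At least 1.2-fold apart were 3 families, L16, L1 and L34. In the adapted culture the median gap was 0.026, 28 families had a gap under 0.05, and L16 and L1 were at least 1.2-fold apart.

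In L16 the gap came mainly from rpl1603. The paralog rpl1601 read 14.73 on the wild-type array, 14.68 on the deletion array and 14.74 on the adapted array, and rpl1602 read 14.65 on each array. The gaps of this family were 0.62 before and 0.32 after adaptation. In L1, rpl101 read 14.98 on each array while rpl102 was lower in both mutant cultures, for gaps of 0.45 and 0.39. In L34, rpl3401 read 14.59 on each array, differing by -0.0017 from wild type in both mutant cultures, and the gaps to rpl3402 were 0.27 and 0.19.

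In L41 both paralogs were above wild type in both mutant cultures, with gaps of 0.15 and 0.045. In L4, L30 and S19 the paralogs rpl402, rpl3001 and rps1901 lay within 0.01 of wild type in both cultures, while rpl401, rpl3002 and rps1902 read below it. In S14 both genes were below wild type in the deletion culture, rps1401 at -0.18 and rps1402 at -0.075, and in the adapted culture they differed by -0.023 and -0.044. The genes rps601 and rps602, whose protein S6 is phosphorylated by the S6 kinase downstream of TORC1, were alike, at -0.029 before and 0 after adaptation. The pair rpl15 and rpl1502, which the digits do not join, had gaps of 0.14 and 0.13.

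Within families the gap was set against the readings. In 20 of the 22 families with a gap of at least 0.05 in the deletion culture, the larger absolute difference was on the probe set that read lower, and in the adapted culture in 10 of 12. Over all 40 families, whatever the gap, the counts were 31 and 25. Where all members of a family differed by 0, the order of the symbols decided. This put L32 and L43 into the first count and S26 into the second, so both counts are too high. Whether a gap belongs to the genes or to the probe sets was not tested. Probe sets of near-identical paralogs may also read each other's transcripts, which was not tested here because no probe sequences were used.

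**Figure D4:**
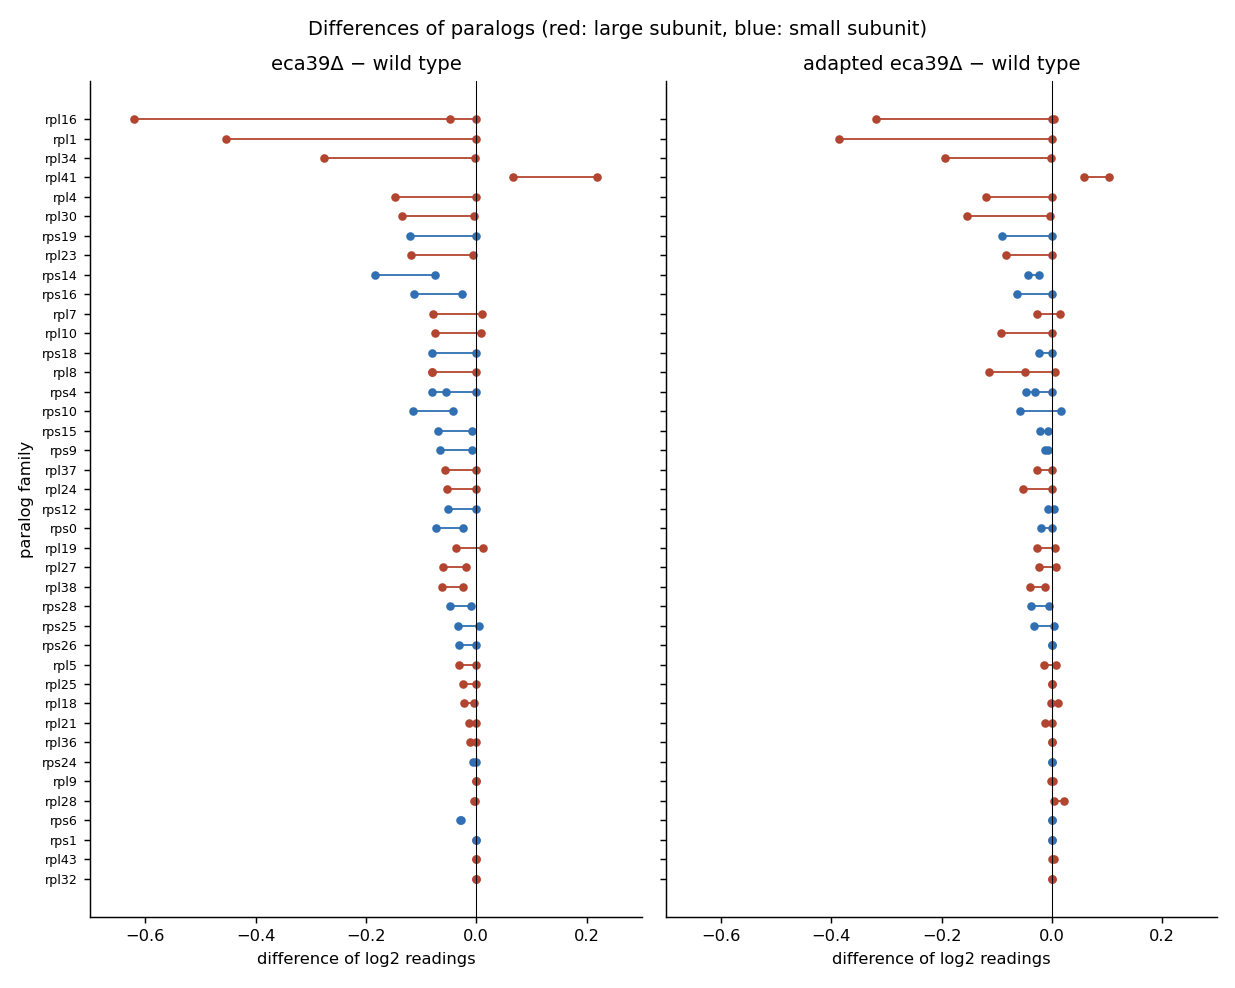
Differences of log2 readings from wild type (horizontal axis) for the members of 40 paralog families (rows, sorted by the gap in the deletion culture), with a line from the lowest to the highest member. The L16, L1 and L34 families are the widest in the deletion culture, with gaps of 0.62, 0.45 and 0.27, and most others lie within 0.1.

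Probe sets that read both genes of a pair gave nearly the same value on all arrays. There were 7 of them, for L3, L10, L11, L12, S22 and, with 2 probe sets, S30. Of these 6 were equal in the deletion culture and wild type, and the 1 that was not, that of rpl1001 and rpl1002, read 15.04 on the wild-type array, 15.05 on the deletion array and 15.05 on the adapted array. The gene rps2202 also had a probe set of its own, which read 13.28, 13.22 and 13.20, whereas the set shared with rps2201 read 14.68, 14.68 and 14.69. For rps3002 the sets of its own differed from wild type by -0.055 and -0.11 in the deletion culture, while both shared sets differed by 0. For rpl3702 both of its sets were below wild type, by -0.027 and -0.087.

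Ribosomal proteins whose symbols do not start with rpl or rps were also near wild type. Of 10 measured among 12 listed, none passed 1.2-fold in either mutant culture, though 1 did before adaptation under repeated quantile normalization. Of bright features 9.11% and 7.08% were lower and 13.5% and 13.3% higher by that much. Before adaptation 8 of the 10 were below and 1 above wild type, and after it 7 and 2. Of all features 42.8% and 34.8% were below it, and of those in the top 10% by mean reading 57.7% and 43.1%. All 10 read above 14, and their medians were -0.033 before and -0.0024 after adaptation. The lowest was rpp203, a gene of the acidic P proteins that form the stalk to which elongation factors bind, which read 14.24 on the wild-type array, 14.02 on the deletion array and 14.12 on the adapted array (-0.22 and -0.12). The other stalk genes, rpp0, rpp101, rpp102, rpp103, rpp201 and rpp202, lay between -0.070 and 0 in the deletion culture. The genes ubi1 and ubi3, which encode ubiquitin fused to a ribosomal protein, differed by -0.0012 and 0.028, and cpc2, of the scaffold protein known in animals as RACK1, by -0.045.

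The other genes of translation and ribosome assembly were taken from lists of gene names, which were chosen with earlier results of these data known. Of 13 ribosome assembly genes measured among 23 listed all were below wild type in both mutant cultures, with medians of -0.22 and -0.25, and 4 and 5 of them were lower by 1.2-fold. Of all features 42.8% and 34.8% were below wild type, and of bright features 9.11% and 7.08% were lower by 1.2-fold. In the top 10% by mean reading, to which not all 13 belong, 57.7% and 43.1% of features were below wild type. All 13 were below wild type under the 3 other scalings as well, with 2 lower by 1.2-fold in the deletion culture once the trend was removed. They read from 10.98 to 14.14, below most members. The 6 members that read under 14 in wild type had medians of -0.23 and -0.13, with 5 below and 1 above wild type in each mutant culture. Other features under 14 had medians of 0 and 0.036. These reach down to a wild-type reading of 2.99, so they are not matched by reading to the 6 members or the assembly genes. Whether assembly genes and members differ at like readings was not tested. In the deletion culture the lowest were gar2, of a nucleolar protein for ribosomal RNA processing (-0.47), and rrs1 (-0.43), and in the adapted culture mak16 (-0.42) and gar2 (-0.41). Of 16 genes taken by symbol as translation initiation factors, 13 were below wild type before adaptation and 14 after it. Their medians were -0.088 and -0.067, and with the trend removed 10 and 15 were below. Whether each of the 16 acts in initiation was not checked. The gene tif512 (0.0044 and 0.014) was kept in this list, while tif51 was counted with the elongation factors. Lower by 1.2-fold were tif213 (-0.38 and -0.27), a gene of the factor that brings initiator transfer RNA, and in the adapted culture also tif32 (-0.35). These counts of 1 and 2 of 16 are near the shares of bright features, 9.11% and 7.08%. The 4 elongation factor genes measured among 11 listed, which read from 14.18 to 15.17, lay between -0.068 and 0.054 in both cultures. Genes for the separate ribosome of mitochondria, 39 in number, had medians of -0.028 and 0.018, with 2 lower by 1.2-fold before adaptation, against 9.11% of bright features, and 2 higher after it, against 13.3%. The sign of the second median turned under repeated quantile normalization (-0.033) and on subtracting the median of all features (-0.0090).

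Of 5 genes measured among 7 listed that act on ribosomal protein genes or their products, sfp1 and psk1 stood above wild type. In the deletion and the adapted culture 45.9% and 56.1% of all features did, and the list median was 0 in both. By 1.2-fold 1 gene was higher before and 2 after adaptation, against 13.5% and 13.3% of bright features. The gene sfp1, whose budding yeast namesake is a TOR-regulated activator of ribosomal protein genes, read 11.02 on the wild-type array, 11.55 on the deletion array and 11.34 on the adapted array, differences of 0.53 and 0.33. The gene psk1, of the kinase that phosphorylates S6, read 10.99, 11.17 and 11.35, differences of 0.18 and 0.36. The forkhead gene fhl1, named like a regulator of these genes in budding yeast, and tor2, of the TORC1 kinase, had the same reading on all arrays, at 9.39 and 10.87. The gene rrn7, of a basal transcription factor, differed by -0.046 and -0.033.

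**Figure D5:**
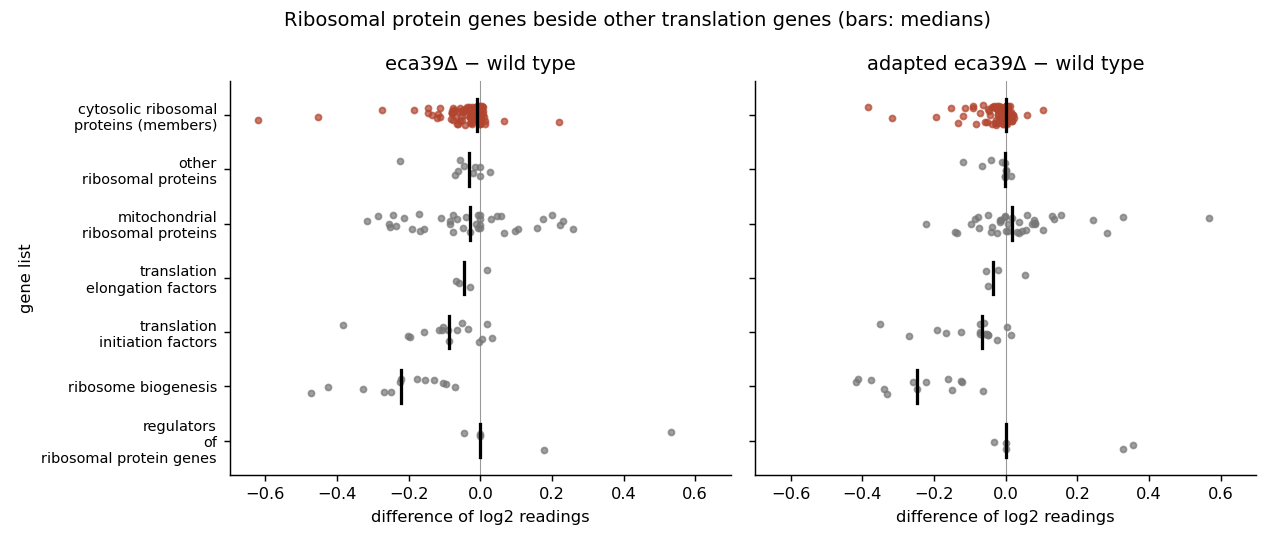
Differences of log2 readings from wild type (horizontal axis) for the 112 ribosomal protein genes (red) and the genes of 6 other lists (grey), in the deletion culture (left) and the adapted culture (right), with bars at the medians. Ribosome assembly genes are all below 0, with medians of -0.22 and -0.25, and the ribosomal protein medians are -0.010 and 0. The assembly genes read lower than most ribosomal protein genes, so the lists are not matched by reading.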

How the data were processed

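Total RNA of each culture was prepared for its array with the 3' IVT Express kit of Affymetrix, per the labels' protocols. The deposited values are log2 readings. Per the submitters' processing notes the authors used affy and RMA. Tool versions, filters and a genome build were not given in the sources used here. That the log base is 2 was assumed, as is usual for RMA. RMA sets the probe values of all arrays to 1 distribution before it summarizes them per probe set, so a shift of most transcripts would not be seen. The summarized readings used here still differed slightly, with medians of 10.64 for wild type and 10.69 for each mutant culture. The saturation of bright probes is not corrected.

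Names came from the platform annotation, matched to the gene table of ASM294v3 by gene number for all 112 members. Probe sets of 1 gene were averaged, and those naming several genes or none were kept apart. Differences were computed with numpy 2.4.6 and pandas 2.3.3, and the trend was removed with lowess (statsmodels 0.14.6, fraction 0.3). The counting was tested on simulated data.

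With 1 array per group no test was run. Members and lists were chosen with earlier results of these data known. For each comparison the 8 highest and 8 lowest members are named, with the 8 paralog families of largest gap in any comparison and members past the size rule. Of each list beside them up to 4 genes are named by absolute difference, and of the other ribosomal proteins all. Genes named beyond this rule, such as rps601 and rps602, were chosen after their values were seen. The alternatives changed the scaling, fold threshold, brightness limit, probe sets or summary. A promoter motif search was planned and is not reported, since no promoter sequences were used here.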

Additional observations from a re-analysis of the deposited data

How the results depend on the processing

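Over 12 alternative settings, 148 of 165 values stayed within 1.5 times of the count or within 0.05 of the log2 median reported. Of these 148, 53 were counts under the 2-fold rule, which were 0 throughout. A further 21 were medians of the members and 15 gaps between subunit medians. All of these are smaller than 0.05 as reported, so a value could turn its sign and still count as kept. The tally therefore says little about how stable the results are. No member passed 2-fold under any scaling. At a 1.5-fold threshold 1 member, rpl1603, was lower in the deletion culture, and 0 were lower in the adapted culture or higher in it than in the deletion culture. At 1.1-fold the members lower than wild type were 6 before and 4 after adaptation, 1 was higher in the deletion culture, and 2 were higher in the adapted than in the deletion culture. With the trend removed 1 member, rpl4101 (0.28), was higher by 1.2-fold in the deletion culture, and 2 in place of 3 were lower. Between the mutant cultures 0 were higher by 1.2-fold with the trend removed or under repeated quantile normalization. Split paralog families numbered 1 at 1.5-fold and 5 at 1.1-fold in the deletion culture and 0 and 4 after adaptation, and 0 at 1.5-fold between the mutant cultures. Without members above the 99th percentile 1 family was split in the adapted culture, because rpl102 then had no partner. The median of the 112 genes in the deletion culture was 0.0070 with the trend removed and -0.037 as a mean, and between the mutant cultures it was -0.0020 with the trend removed. The number of arrays and the readings near the top of the scale limit what can be seen. No paired analysis was possible because each group has 1 array.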

Other observations

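The 112 genes lie on chromosomes I (45 genes), II (45) and III (22) in assembly ASM294v3. In the order of protein-coding genes, 8 pairs of them stand next to each other, among them rpl701 with rps1402 and rps1402 with rps1601. Neighbours need not have read alike, since in the deletion culture rps1602 differed from wild type by -0.11 and its neighbour rpl13 by 0. Of the 112 members 15 have another member as a neighbour, and none of the 3 that passed 1.2-fold is among them. With so few genes on either side, nothing follows from this.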
